A study of Mus musculus with 6 samples.

Results

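The heat shock genes examined here are 10 genes of cytosolic and mitochondrial chaperones, Hspa1a, Hspa1b, Hsph1, Hspa8, Hsp90aa1, Hsp90ab1, Dnajb1, Hspb1, Hspd1 and Hspe1. They were taken by gene symbol from the annotation of a mouse 3' expression array. Of the 10 genes, 9 had probe sets named for them alone, 22 probe sets in all, out of 18193 genes and 34945 probe sets tested. Hsp90ab1 was not analysed here. Where a gene had several probe sets, the one with the highest mean over the 6 arrays stands for it, and the others are given beside it.

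Each array carried total RNA from small intestinal cells of 1 mouse with an EGFP-IRES-creERT2 cassette at Lgr5, the gene of a receptor that marks crypt stem cells. In these mice the Lgr5 locus drives both EGFP and the inducible recombinase, and cells with high GFP were sorted. There were 3 mice given DBZ, a gamma-secretase inhibitor that blocks the release of the active part of Notch receptors, and 3 mice given the vehicle, DMSO, all collected at 24 h. All 6 mice carried the cassette, and the labels used here give no sex, age or strain. The arrays were made to ask which intestinal genes respond when NOTCH1 is blocked. The treatment compared was DBZ, whose block is of Notch receptors and not of NOTCH1 alone.

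Heat shock proteins are chaperones, which hold unfolded proteins and help them fold. In the cytosol HSP70 proteins bind exposed stretches of client proteins with the help of J-domain proteins and of HSP110, which exchanges their nucleotide, and pass some clients on to HSP90. In mitochondria the HSP60 ring and its HSP10 lid enclose single proteins while they fold. Stress that unfolds proteins activates heat shock factor 1, which binds heat shock elements, inverted repeats of the unit GAA, and switches on the inducible members, while others such as Hspa8 are made in unstressed cells all the time.

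Promoter sequences of 7 of the 10 genes were found among RefSeq windows of mouse build GRCm38.p6, each from 250 bases before to 50 bases after an annotated transcription start. They are shown because the genes that rose and the genes that did not can be set side by side for the same element. Capitals mark pairs of inverted GAA units, GAANNTTC or TTCNNGAA, which read the same on both strands, and neighbouring pairs may overlap. The window of Hspa1b lies at chr17:34959189-34959488 on the minus strand, that of Hsph1 at chr5:149636287-149636586 on the minus strand, that of Hspb1 at chr5:135887669-135887968 on the plus strand and that of Hspe1 at chr1:55087898-55088197 on the plus strand.
Hspa1b: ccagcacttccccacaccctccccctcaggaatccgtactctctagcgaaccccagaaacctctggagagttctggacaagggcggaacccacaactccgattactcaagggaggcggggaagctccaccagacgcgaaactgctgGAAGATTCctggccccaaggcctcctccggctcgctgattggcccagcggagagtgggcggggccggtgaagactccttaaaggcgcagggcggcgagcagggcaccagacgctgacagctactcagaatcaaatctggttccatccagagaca
Hsph1: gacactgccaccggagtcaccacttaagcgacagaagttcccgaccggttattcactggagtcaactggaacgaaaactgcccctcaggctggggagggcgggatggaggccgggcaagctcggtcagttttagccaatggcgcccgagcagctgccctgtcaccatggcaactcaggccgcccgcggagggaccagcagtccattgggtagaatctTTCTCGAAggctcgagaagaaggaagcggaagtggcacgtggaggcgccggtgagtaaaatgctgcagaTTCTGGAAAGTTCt
Hspb1: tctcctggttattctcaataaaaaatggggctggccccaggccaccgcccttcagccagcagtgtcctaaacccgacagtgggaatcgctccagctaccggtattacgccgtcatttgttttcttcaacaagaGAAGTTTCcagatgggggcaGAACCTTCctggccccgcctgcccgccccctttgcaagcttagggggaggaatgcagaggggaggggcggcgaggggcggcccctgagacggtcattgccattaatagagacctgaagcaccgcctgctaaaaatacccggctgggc
Hspe1: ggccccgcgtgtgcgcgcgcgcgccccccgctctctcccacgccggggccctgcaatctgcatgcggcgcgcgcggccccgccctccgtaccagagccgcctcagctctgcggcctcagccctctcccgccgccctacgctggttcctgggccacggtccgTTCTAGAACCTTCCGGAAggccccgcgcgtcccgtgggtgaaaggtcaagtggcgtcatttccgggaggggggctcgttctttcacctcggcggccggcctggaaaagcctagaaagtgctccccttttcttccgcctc

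At least 1 pair was found in 6 of the 7 genes, against 17.0% of all 27025 genes with a window of this length. A run of 3 units, GAANNTTCNNGAA or TTCNNGAANNTTC, was found in Hsph1, Hspd1 and Hspe1, against 0.662% of all genes. Hspa1b held 1 pair, 104 to 97 bases before its start, and Hspb1 held 2, at 117 to 110 and 97 to 90 bases before the start. In Hsph1 the run of 3 units lay 36 to 48 bases after the first of the 2 starts that had a window. The annotated gene begins further upstream, at chr5:149636498, and no window was set from that end. Hspd1 and Hspe1 stand next to each other on chromosome 1 and are read in opposite directions from a shared stretch. Their pairs are the same bases, chr1:55088059-55088076, seen from either side, and form a run of 4 units. Neither of the 2 windows of Dnajb1 held these letters. A match says only that the letters are present.

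The windows of Hspa1a and Hspa1b, neighbours on chromosome 17, were 98.7% identical. They differed at 4 of 300 positions, C44T, T47C, T249G and C276T, counted from 1 at the 5′ end with the base of Hspa1a first, and the pair of units was in the same place in both. The coding sequences of these genes are also known to be nearly identical. Their probe sets can therefore share signal, and the values of Hspa1a and Hspa1b are uncertain as measures of one gene alone.

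**Figure D1:**
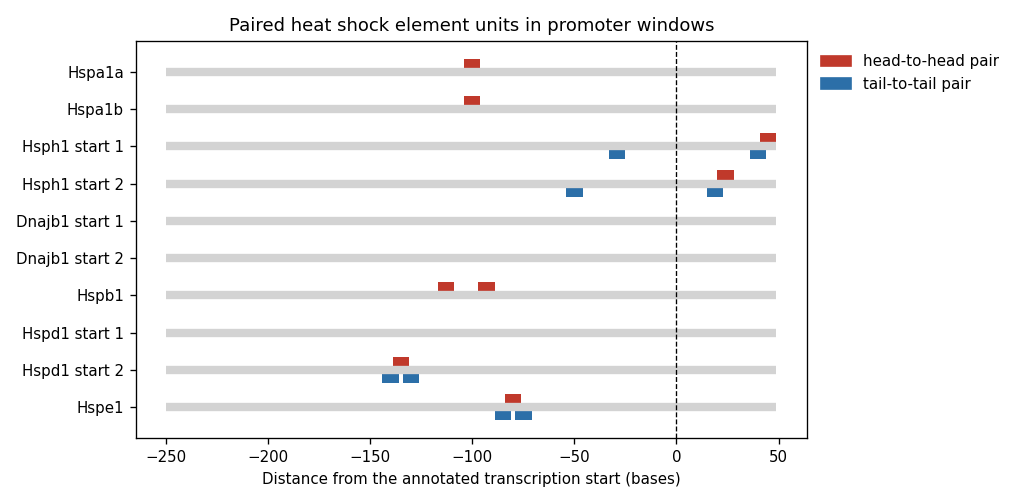
Positions of GAANNTTC (red, above the grey bar) and TTCNNGAA (blue, below it) in each promoter window, as distance in bases from the annotated transcription start (dashed line); genes with 2 annotated starts have 2 bars. Pairs of units are present in Hspa1a, Hspa1b, Hsph1, Hspb1, Hspd1 and Hspe1, and in neither window of Dnajb1.

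The values are probe set intensities, in the arrays' own linear units, with array medians between 44.9 and 46.3. Differences between groups are DBZ minus vehicle on the scale log2(intensity + 16), which understates the change of dim genes, and were tested with limma over all genes with Benjamini-Hochberg adjustment at a threshold of 0.05. Known Notch genes were read first. Olfm4, a crypt stem cell gene that depends on Notch, fell to 18.6 to 35.9 in DBZ arrays, below the array medians, against 3627 to 5177 in vehicle arrays. The Notch target Hes1 fell by 0.82, and Atoh1, the secretory fate factor that Hes1 represses, rose by 1.90. The epithelial gene Epcam averaged 18665 ± 1296 in DBZ and 18274 ± 1111 in vehicle arrays, and Lgr5 averaged 230 ± 18.0 in DBZ and 245 ± 35.9 in vehicle arrays (SD, n = 3). Of 12 epithelial and crypt markers 11 lay above the array median on all 6 arrays. None of the 12 rose and 2 fell, Olfm4 and the crypt stem cell gene Ascl2 (limma, Benjamini-Hochberg), or 16.7%, beside 5.34% of all genes. Ascl2 was at -1.03 ± 0.13 (SE), with an adjusted p of 0.025 (limma). At an unadjusted p under 0.05 (limma) 1 of the 12 was higher and 4 lower, beside 15.1% and 11.3% of all genes. Of the 12 differences 8 were negative. Markers of other cells were also present. All 12 fibroblast and smooth muscle genes lay above the array median on all 6 arrays, and their summed intensity was 47805 to 55533 in DBZ arrays against 21831 to 32276 in vehicle arrays. The actin control spots, whose 3' to 5' signal ratio reflects how intact the RNA was, had ratios of 1.51 to 1.57 in DBZ arrays and 1.61 to 2.22 in vehicle arrays, highest in vehicle replicate 1. The same ratio for Gapdh was 1.05 to 1.10 in DBZ arrays and 1.07 to 1.42 in vehicle arrays, so those groups overlapped. The fibroblast and smooth muscle sum and the actin ratio moved with the comparison, and their part in the results was not tested.

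Of the 9 measured heat shock genes 2 rose in DBZ cells, Hspa1b and Hsph1, and none fell, while 7 did not pass the test (limma, Benjamini-Hochberg). At an unadjusted p under 0.05 (limma), 4 were higher and 1, Hspe1, was lower, where 15.1% of all genes were higher and 11.3% lower. The 2 calls are 22.2% of the members, where 5.34% of all genes passed in either direction, 3.82% higher and 1.52% lower. The median difference over the 9 was 0.14, against -0.02 over all genes. Differences ran from -0.37 for Hspe1 to 1.00 for Hspa1a, so the members did not move as a block. The inducible HSP70 genes Hspa1a and Hspa1b had the highest differences, followed by Hspb1 and Hsph1, and the mitochondrial pair Hspd1 and Hspe1 the lowest. Calls were lost when 1 array was left out. Without vehicle replicate 1, 2 or 3 none of the 9 passed, and without DBZ replicate 3 only Hspa1b did. Calls among all genes also fell, to 0.269%, 0.104%, 0.209% and 1.93% in these 4 fits, from 5.34% with all arrays.

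**Figure D2:**
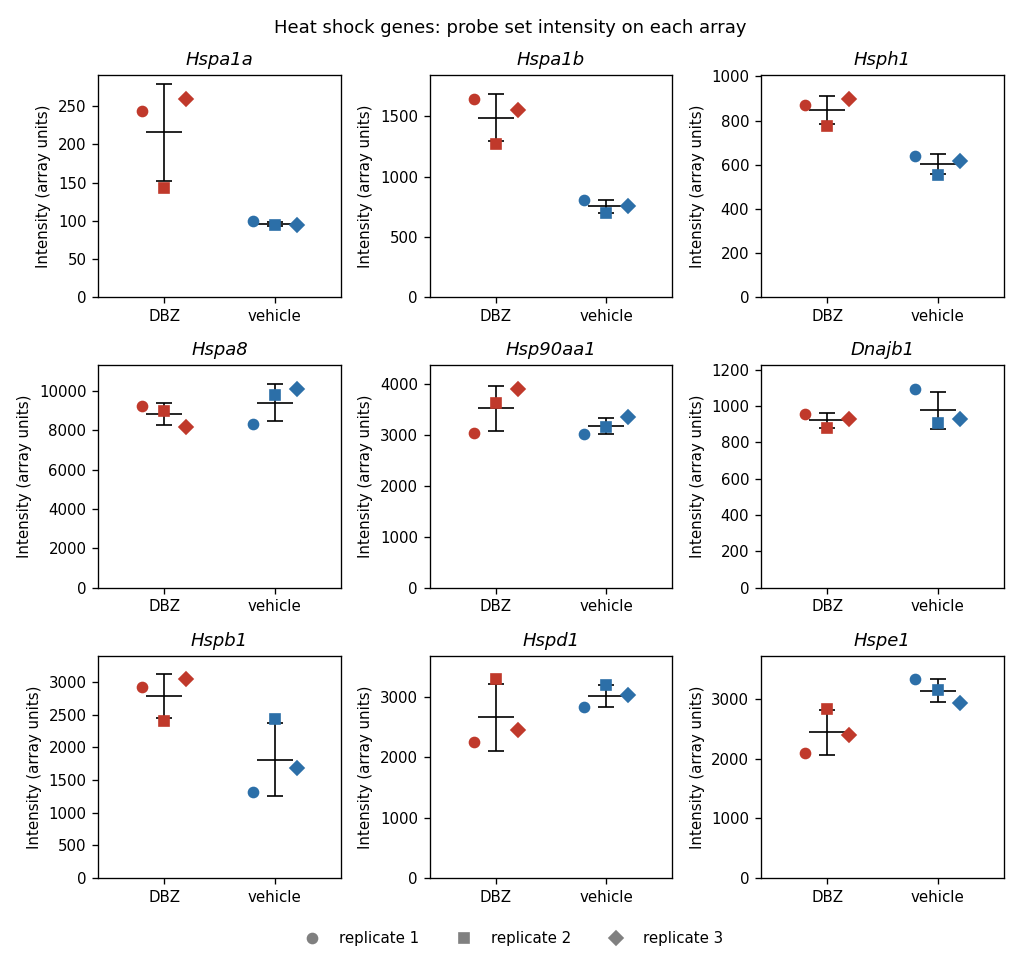
Intensity of the main probe set of each measured heat shock gene, in array units on axes that start at 0; symbols are single arrays, with DBZ left and vehicle right, and bars give the mean ± SD of 3 arrays. All 3 DBZ arrays lie above all 3 vehicle arrays for Hspa1a, Hspa1b and Hsph1 and below them for Hspe1, and the groups overlap for the other 5 genes. Groups without overlap make up 44.4% of the 9 genes, beside 33.2% of all genes, 17.3% with DBZ above and 15.8% with DBZ below.

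Hspa1b encodes the stress-inducible HSP70 of the cytosol and nucleus. Its intensity was 1646, 1268 and 1554 in DBZ replicates 1, 2 and 3, against 802, 699 and 759 in vehicle replicates 1, 2 and 3. Every DBZ array lay above every vehicle array, as for 17.3% of all genes, and the lowest DBZ value belonged to replicate 2. The difference was 0.96 ± 0.11 (SE), a 1.95-fold rise (95% interval 1.61 to 2.36) that passed at an adjusted p of 0.022 (limma, Benjamini-Hochberg). Its other 2 probe sets moved the same way. One read 828, 567 and 820 in DBZ arrays against 313, 327 and 329 in vehicle arrays. For the other the values were 520, 378 and 529 in DBZ arrays against 146, 203 and 202 in vehicle arrays. When every probe set was tested on its own, all 3 were higher, by 0.96, 1.13 and 1.30 (limma, adjusted p = 0.028, 0.032 and 0.033), where 2.12% of all probe sets were. The call was lost when any 1 vehicle array was left out (limma, adjusted p = 0.070, 0.092 and 0.083 without replicate 1, 2 and 3), with differences of 1.01, 0.91 and 0.97.

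Hspa1a, the neighbouring copy, had the largest difference of the members and narrowly missed the threshold. Intensities were 244, 143 and 260 in DBZ replicates 1, 2 and 3, against 99.5, 94.1 and 95.1 in vehicle replicates 1, 2 and 3. Every DBZ array lay above every vehicle array, as was the case for 17.3% of all genes. DBZ replicate 2 was again the lowest of the DBZ arrays. The difference was 1.00 ± 0.21 (SE; limma, Benjamini-Hochberg adjusted p = 0.0503), with a 95% interval of 0.50 to 1.51. Without DBZ replicate 2 it was 1.26 and passed (limma, adjusted p = 0.0072).

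Hsph1 encodes HSP110 (HSP105), the nucleotide exchange factor of HSP70. It read 869, 777 and 899 in DBZ replicates 1, 2 and 3. Vehicle replicates 1, 2 and 3 read 638, 555 and 619. Every DBZ array lay above every vehicle array, as for 17.3% of all genes. Replicate 2 was the lowest in both groups. The rise was smaller than that of Hspa1b, at 0.48 ± 0.09 (SE), or 1.39-fold (95% interval 1.21 to 1.61), and passed at an adjusted p of 0.038 (limma, Benjamini-Hochberg). Its second probe set gave 227, 215 and 260 in DBZ arrays against 90.3, 129 and 145 in vehicle arrays. There the difference was 0.88 ± 0.16 (SE; limma over every probe set, adjusted p = 0.052). Leaving out DBZ replicate 2 or 3 or any vehicle array ended the call, at an adjusted p of 0.066 to 0.12 (limma), while the difference stayed between 0.42 and 0.54.

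Hspb1 encodes HSP27, a small heat shock protein that holds unfolded proteins and binds the actin cytoskeleton, and that is abundant in smooth muscle. Intensities were 2928, 2408 and 3041 in DBZ replicates 1, 2 and 3, against 1325, 2429 and 1689 in vehicle replicates 1, 2 and 3. Vehicle replicate 2 lay above DBZ replicate 2, so the groups overlapped. The difference of 0.65 ± 0.22 (SE) did not pass (limma, Benjamini-Hochberg adjusted p = 0.13), and its 95% interval ran from 0.11 to 1.20. A second probe set had the same order of arrays within each group and a difference of 0.52 ± 0.22 (SE). The fibroblast and smooth muscle list had mean centred log2 values of 0.40, 0.44 and 0.65 in DBZ replicates 1, 2 and 3, against -0.77, -0.48 and -0.24 in vehicle replicates 1, 2 and 3. Its part in the Hspb1 values was not tested.

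Hspa8 encodes the constitutive HSP70, HSC70, which also uncoats clathrin vesicles. It read 9263, 9001 and 8189 in DBZ replicates 1, 2 and 3, against 8331, 9782 and 10104 in vehicle replicates 1, 2 and 3. The groups overlapped and the difference was -0.09 ± 0.10 (SE; limma, Benjamini-Hochberg adjusted p = 0.60), with a 95% interval of -0.32 to 0.14. Another probe set gave 7949, 7395 and 7148 in DBZ arrays against 10439, 8921 and 9478 in vehicle arrays. These groups did not overlap, and the difference of -0.36 ± 0.08 (SE) did not pass either (limma over every probe set, adjusted p = 0.068). The remaining Hspa8 probe sets were at -0.29 ± 0.15 and 0.24 ± 0.27 (SE). The last of these was much dimmer, averaging 185 in DBZ and 154 in vehicle arrays. Its 95% interval ran from -0.42 to 0.90. The probe sets of this gene thus disagree in sign only through 1 whose own sign is not clear.

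Hsp90aa1 encodes the inducible form of cytosolic HSP90, the chaperone of kinases and steroid receptors. Its main probe set read 3029, 3629 and 3897 in DBZ replicates 1, 2 and 3, against 3022, 3151 and 3345 in vehicle replicates 1, 2 and 3. DBZ replicate 1 lay within the vehicle values. The difference was 0.14 ± 0.11 (SE; limma, Benjamini-Hochberg adjusted p = 0.45), with a 95% interval of -0.11 to 0.40. Another probe set, at 1321, 1576 and 1709 in DBZ arrays against 862, 1216 and 1269 in vehicle arrays, had a difference of 0.47 ± 0.17 (SE; limma over every probe set, adjusted p = 0.17). One more was at 0.19. The last 2 lay below the array median on all 6 arrays, with differences of -0.06 and 0.01.

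Dnajb1 encodes HSP40, the J-domain partner of inducible HSP70. It read 958, 877 and 930 in DBZ replicates 1, 2 and 3, against 1094, 906 and 931 in vehicle replicates 1, 2 and 3. The groups overlapped, and the difference was -0.08 ± 0.09 (SE; limma, Benjamini-Hochberg adjusted p = 0.62), with a 95% interval of -0.30 to 0.14. A second probe set was at 0.14 ± 0.11 (SE). The sign of the Dnajb1 difference therefore depends on the probe set.

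Hspd1 and Hspe1 encode mitochondrial HSP60 and its co-chaperone HSP10. Hspe1 read 2096, 2836 and 2392 in DBZ replicates 1, 2 and 3, against 3326, 3156 and 2938 in vehicle replicates 1, 2 and 3. All DBZ arrays lay below all vehicle arrays, as they did for 15.8% of all genes. The difference of -0.37 ± 0.12 (SE) did not pass (limma, Benjamini-Hochberg adjusted p = 0.12), and the other probe set of Hspe1 was at -0.0018 ± 0.11 (SE). Hspd1, with 1 probe set, read 2245, 3283 and 2446 in DBZ replicates 1, 2 and 3, against 2820, 3193 and 3018 in vehicle replicates 1, 2 and 3. DBZ replicate 2 was the highest of all 6 arrays, and the groups overlapped. The difference was -0.20 ± 0.15 (SE; limma, adjusted p = 0.45), with a 95% interval of -0.55 to 0.16. Both genes had DBZ replicate 2 as the highest and replicate 1 as the lowest of the DBZ arrays.

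**Figure D3:**
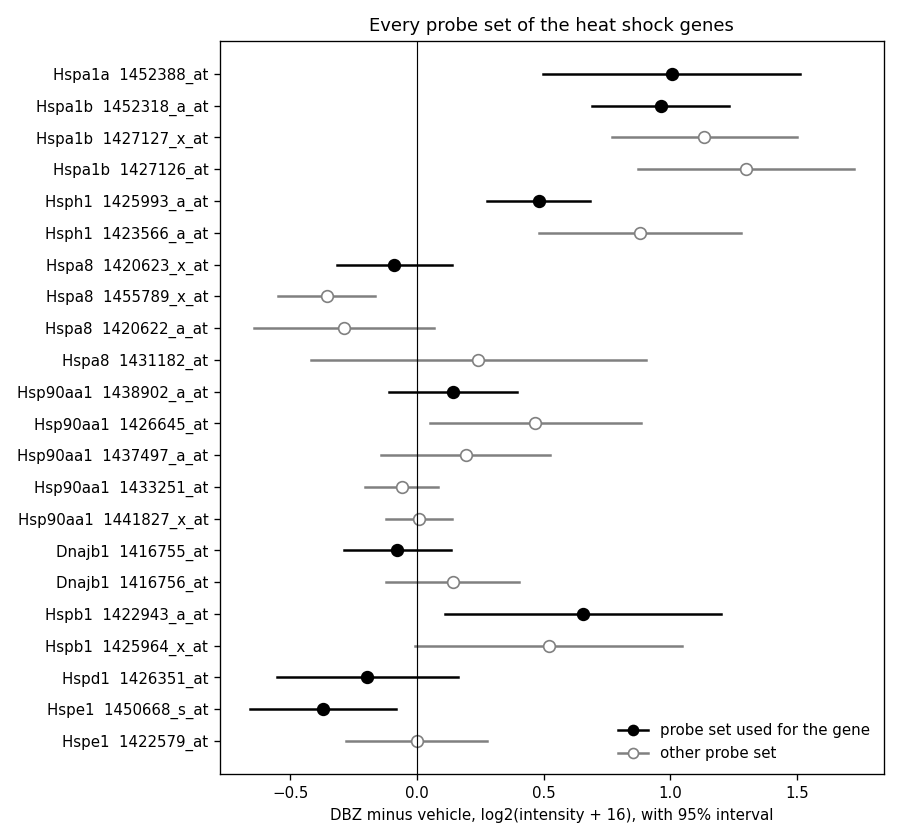
Difference between DBZ and vehicle arrays for all 22 probe sets of the heat shock genes, on the log2(intensity + 16) scale with 95% intervals from limma fitted over every probe set; filled points are the probe set used for the gene. All 6 probe sets of Hspa1a, Hspa1b and Hsph1 lie above 0, while those of Hspa8, Hsp90aa1 and Dnajb1 lie on both sides of it.

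The members thus differed in which arrays were high. DBZ replicate 2 was the lowest DBZ array for Hspa1a, Hspa1b, Hsph1, Hspb1 and Dnajb1 and the highest for Hspd1 and Hspe1. With the group means taken out, Hspa1a and Hspa1b had a Pearson correlation of 0.88 over the 6 arrays, Hspa1b and Hsph1 of 0.89, Hspd1 and Hspe1 of 0.81 and Hspa1b and Hspd1 of -0.99. These are descriptions of 6 arrays that share their scaling. The order of the DBZ arrays in Hspa1a, with replicate 2 lowest and replicate 3 highest, was shared by 13.8% of all genes. Of the 9 members 3 had this order, Hspa1a itself, Hsph1 and Hspb1, and Hspa1b did not. It was found in 5 of 11 leukocyte, 5 of 12 fibroblast and smooth muscle, 4 of 8 endothelial and 3 of 4 adipocyte markers. Of the immediate early genes described below 6 of 16 had it. It was found in 0 of 12 epithelial and crypt markers, 0 of 15 endoplasmic reticulum chaperones and 0 of 11 Paneth, goblet and enteroendocrine markers. Among the other lists described below, 0 of 23 co-chaperones, 0 of 16 TRiC and prefoldin and 0 of 7 heat shock factor genes had it. The counts were 1 of 16 J-domain, 1 of 9 other HSP70 and HSP110, 2 of 9 small heat shock and 1 of 17 mitochondrial genes. The leukocyte list had 2 genes higher and none lower (limma, Benjamini-Hochberg), but 7 of its 11 differences were negative, with a median of -0.18. One of its genes that rose, S100a8, a neutrophil gene, read 1486, 308 and 2746 in DBZ replicates 1, 2 and 3, against 16.9, 17.0 and 24.0 in vehicle replicates 1, 2 and 3, which lie below the array medians. Adipoq, an adipocyte hormone gene, read 1451, 1170 and 3256 in DBZ arrays against 252, 480 and 133 in vehicle arrays. Summed intensity of 11 leukocyte markers was 6770 to 15499 in DBZ and 8010 to 11674 in vehicle arrays. That of 4 adipocyte markers was 4893 to 11705 in DBZ and 1338 to 2911 in vehicle arrays. For 8 endothelial markers it was 915 to 1079 in DBZ and 659 to 773 in vehicle arrays. The part of these cells in the heat shock values was not tested. In sorted cells measured in bulk, more RNA per cell and more cells of a type cannot be told apart.

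Over the 6 arrays, the genes whose profile was most like the mean of the 9 members were Dusp3, Cenpj, Lrg1, Plscr2 and Smim3, with Pearson correlations of 0.9947 to 0.9994 among 18184 other genes. With the group means taken out they were Kcnc2, Ttc19, Ino80dos, Dmxl2 and Isoc2b, at 0.9925 to 0.9969. These correlations are a description of 6 arrays that share their scaling.

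Genes around the heat shock genes were read from 7 lists, which hold 96 measured genes besides the members. Of these 5 rose and 0 fell (limma, Benjamini-Hochberg), or 5.21%, close to the 5.34% of all genes, and their median difference was 0.04. At an unadjusted p under 0.05 (limma) 25 of the 96 were higher and 7 lower, beside 15.1% higher and 11.3% lower among all genes. The 5 past the test were Dnaja1, Dnajb5, Clpb, Grpel2 and Ddit3. The count was 0 without DBZ replicate 2 or any one vehicle array, 2 without DBZ replicate 3 and 11 without DBZ replicate 1. All genes past the test moved too, at 11.2%, 1.19% and 1.93% without DBZ replicate 1, 2 and 3. Without vehicle replicate 1, 2 and 3 they were 0.269%, 0.104% and 0.209%.

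Among 16 other J-domain genes 2 rose and none fell, or 12.5%, beside 5.34% of all genes. Dnaja1, an HSP70 partner of the cytosol, read 3177, 3085 and 2999 in DBZ replicates 1, 2 and 3, against 2380, 2430 and 2595 in vehicle replicates 1, 2 and 3, a difference of 0.32 ± 0.06 (SE; limma, adjusted p = 0.046). Dnajb5 read 198, 190 and 185 in DBZ arrays against 150, 144 and 121 in vehicle arrays, a difference of 0.43 ± 0.09 (SE; limma, adjusted p = 0.048). In both, every DBZ array lay above every vehicle array, as in 17.3% of all genes. The list median was 0.02.

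Of 17 mitochondrial chaperone, protease and stress genes 3 rose and none fell, or 17.6%, beside 5.34% of all genes, with a median of 0.03. Clpb, a disaggregase of the mitochondrial intermembrane space, read 97.5, 109 and 133 in DBZ arrays against 61.0, 72.5 and 65.2 in vehicle arrays, a difference of 0.64 ± 0.11 (SE; limma, adjusted p = 0.038). Grpel2, a nucleotide exchange factor of mitochondrial HSP70, differed by 0.83 ± 0.17 (SE; limma, adjusted p = 0.048). Ddit3, which encodes the stress transcription factor CHOP and also answers to the endoplasmic reticulum, differed by 0.33 ± 0.06 (SE; limma, adjusted p = 0.047). Hspa9, the mitochondrial HSP70 itself, was at 0.0026 ± 0.16 (SE; limma, adjusted p = 0.99), with 1111 ± 169 in DBZ and 1112 ± 187 in vehicle arrays (SD, n = 3).

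No gene of the other 5 lists passed (limma, Benjamini-Hochberg). At an unadjusted p under 0.05 (limma) 6 co-chaperones were higher and 3 lower, 3 HSP70 and HSP110 genes higher and 0 lower, 4 small heat shock genes higher and 1 lower, 1 TRiC and prefoldin gene higher and 1 lower, and 1 gene of the heat shock factor list higher and 0 lower. Among all genes 26.3% had an unadjusted p under 0.05 (limma), 15.1% higher and 11.3% lower. Among 23 measured co-chaperones of HSP70 and HSP90 the smallest p values belonged to Chordc1, an HSP90 partner, at 0.37 ± 0.08, and Bag1, an exchange factor of HSP70, at 0.48 ± 0.11 (SE; limma, adjusted p = 0.053 and 0.058). The 9 other HSP70 and HSP110 genes had a median of 0.0049, with Hspa2 at 0.95 ± 0.21 and Hspa13 at 0.91 ± 0.21 (SE; limma, adjusted p = 0.056 and 0.062). Among 9 small heat shock genes Cryab, the alpha-B crystallin of muscle and lens, was at 0.54 ± 0.11 and Hspb2 at 0.31 ± 0.08 (SE; limma, adjusted p = 0.0505 and 0.072). The TRiC chaperonin, which folds actin and tubulin, and prefoldin, which hands them to it, had 16 genes with a median of -0.0021. Cct4 was at -0.31 ± 0.07 and Pfdn4 at 0.32 ± 0.11 (SE; limma, adjusted p = 0.063 and 0.13). Of 7 genes listed as heat shock factors and their regulators, Vcp, the ATPase that extracts ubiquitinated proteins, was at 0.63 ± 0.14 and the deacetylase gene Hdac6 at 0.14 ± 0.06 (SE; limma, adjusted p = 0.054 and 0.22). Hsf1 was not analysed here.

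Chaperones of the endoplasmic reticulum, which fold secreted and membrane proteins, are the class nearest to the members. Of 15 measured, 6 rose and none fell (limma, Benjamini-Hochberg), or 40%, beside 5.34% of all genes, and the median difference was 0.92. At an unadjusted p under 0.05 (limma) 14 were higher and 0 lower, beside 15.1% and 11.3% of all genes. In 14 every DBZ array lay above every vehicle array, as in 17.3% of all genes. The 6 that rose were the disulfide isomerases Pdia6 at 1.76, Dnajc10 at 1.77 and Pdia3 at 1.05, with Sdf2l1 at 1.54, Manf at 1.24 and the lectin chaperone Calr at 0.65. Most markers of secretory cells moved with them. Of 11 Paneth, goblet and enteroendocrine genes 4 rose and none fell (limma, Benjamini-Hochberg), or 36.4%, and the median difference was 1.10. For 9 of the 11 every DBZ array lay above every vehicle array, as for 17.3% of all genes. The Paneth cell gene Lyz1 went the other way, at -0.30, with every DBZ array below every vehicle array, as for 15.8% of all genes. Summed intensity of the 11 genes was 121483 to 166192 in DBZ arrays against 104338 to 110013 in vehicle arrays. The part of secretory cells in the endoplasmic reticulum values was not tested. The count of endoplasmic reticulum chaperones past the test was 0 without DBZ replicate 2 or any one vehicle array and 11 without DBZ replicate 1. Of all genes 11.2% passed without DBZ replicate 1 and 1.19% without DBZ replicate 2. The difference from the cytosolic and mitochondrial members was not tested. The list's mean centred log2 value was 0.16, 0.39 and 1.00 in DBZ replicates 1, 2 and 3, while Hspa1b was lowest in replicate 2.

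Immediate early genes, which rise within minutes of tissue handling, were read beside the heat shock genes, since both classes respond to cell isolation. Of 16, 1 rose and none fell, or 6.25%, beside 5.34% of all genes, with a median of 0.21. At an unadjusted p under 0.05 (limma) 5 were higher and 0 lower, where 15.1% of all genes were higher and 11.3% lower. The difference was positive for 13 of the 16. For 5 every DBZ array lay above every vehicle array, as for 17.3% of all genes. The gene past the test was Ier3, at 377, 394 and 483 in DBZ replicates 1, 2 and 3 against 163, 261 and 190 in vehicle replicates 1, 2 and 3 (limma, Benjamini-Hochberg adjusted p = 0.039). Summed intensity of the list was 12268 to 17737 in DBZ arrays and 10168 to 13708 in vehicle arrays, overlapping. The part of handling in the heat shock values was not tested.

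**Figure D4:**
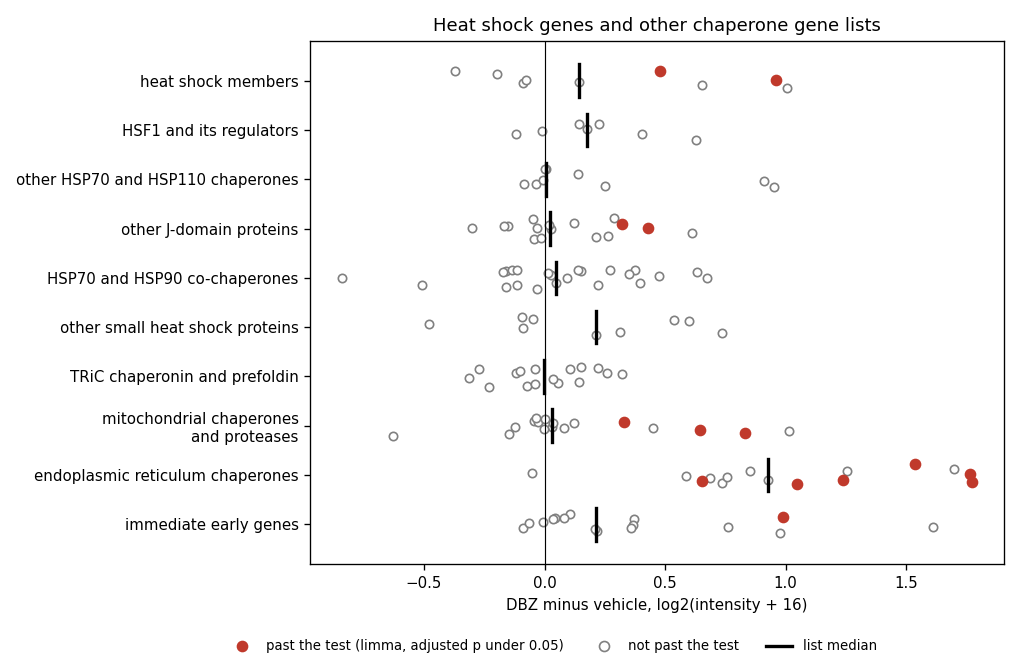
Difference between DBZ and vehicle arrays for each measured gene of the heat shock members and of the chaperone and immediate early lists, on the log2(intensity + 16) scale; red points passed the test (limma, adjusted p under 0.05), open points did not, and black bars are list medians. The median of the endoplasmic reticulum list lies at 0.92, while those of the other lists lie between -0.0021 and 0.21.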

How the data were processed

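Per the labels' protocols, total RNA was extracted with a column kit, amplified with a 3' IVT kit, biotin-labelled and hybridised to Affymetrix arrays. The authors deposited linear intensities per probe set whose array medians are about equal. How background was corrected and arrays were scaled is not given in the sources used here. Titles gave the groups; the description field names DMSO for all 6 samples. Of 45101 probe sets, 64 were controls, 34945 others had 1 symbol, 932 several and 9160 none; only the single-symbol ones were tested. The Entrez identifiers changed 0 symbols.

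DBZ was compared with vehicle on log2(intensity + 16) in R 4.3.3, two-sided, with lmFit and eBayes of limma 3.58.1, 1 probe set per gene, with Benjamini-Hochberg adjustment over 18193 genes; SE is moderated, and the prior gave 2.21 degrees of freedom. The test was also run on simulated data with independent noise for each gene and array. That run cannot speak to deviations that genes share on an array. An exact permutation test of 1 value cannot go below p = 0.1 here. The number of arrays limits the precision. Members and lists were chosen with earlier results of these data known. Named are all members, list genes past the test or else the 2 of smallest p per list, the 5 genes of most similar profile, and Olfm4, Hes1 and Atoh1 as checks. Hspa9, Lgr5, Epcam, Ascl2, Lyz1, S100a8 and Adipoq were chosen after their values were seen. Promoters and gene positions are from RefSeq (GRCm38.p6). Alternatives were quantile normalization, median centring, pseudocounts of 1 and 64, a filter on dim genes, other probe set choices, other variance models, array weights, a replicate block, a threshold of 0.1 and leaving out each array.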

Additional observations from a re-analysis of the deposited data

How the results depend on the processing

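The directions of Hspa1a, Hspa1b, Hsph1, Hspa8, Hsp90aa1, Hspb1, Hspd1 and Hspe1 held under all 17 alternatives run for each, except that Hspe1 was at -0.0018 ± 0.12 (SE; limma, adjusted p = 0.99), which has no clear sign, without _x_at and _s_at probe sets. Dnajb1 changed sign to 0.031 with the mean of all probe sets, and lay between -0.13 and 0.0042 when 1 array was left out, above 0 without vehicle replicate 1. Of the members, 2 were higher; the count was 1 with quantile normalization and with a pseudocount of 64, 3 with a threshold of 0.1 and in 4 further settings, and 0 to 2 when 1 array was left out, 0 without vehicle replicate 1, 2 or 3. None was lower in any of the 18 alternatives. Titles share replicate numbers but do not say that they pair mice, so the numbers were not taken as pairs. Same-numbered arrays deviated from their group means with correlations of -0.0086, 0.25 and 0.20 across genes for replicates 1, 2 and 3. The correlation was -0.29 for DBZ replicate 2 with vehicle replicate 3, and -0.18 for DBZ replicate 3 with vehicle replicate 2. Replicate 1 did not correlate best with its own number. With the replicate block 889 genes passed, Hspa1b and Hsph1 among them. Hspa1a passed under 5 alternatives, in a range of adjusted p from 0.0072 to 0.14 (limma); Hspa1b spanned 0.0087 to 0.092 and Hsph1 0.020 to 0.12. The 5 calls among chaperone list genes were 2 with quantile normalization, a pseudocount of 64, the mean of all probe sets and every probe set tested, 8 with genes above the median gene only, 17 with array weights, 20 with a threshold of 0.1 and 0 to 11 with 1 array left out. All genes past the test numbered 972, against 440 with a pseudocount of 64, 2690 with array weights, 2575 with a threshold of 0.1 and 19 to 2032 with 1 array left out (at most 49 with a vehicle array left out). The 6 calls among endoplasmic reticulum chaperones were 2 with a pseudocount of 64, 11 with genes above the median gene only and with a threshold of 0.1, 12 with array weights, 11 without DBZ replicate 1, and 0 without DBZ replicate 2 or without vehicle replicate 1, 2 or 3. The cause of these changes was not tested, and replicate spread limits every call.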
